A study of Mus musculus with 10 samples.

Results

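Collagen genes encode the triple-helical proteins of the extracellular matrix, and 43 of them were examined here across the cell classes and stages of the embryonic mouse pancreas. They were chosen by symbol: of the 27716 genes listed in every matrix, 44 carried a collagen symbol of the form Col, number, a, number, and the 43 with 20 or more UMIs in all libraries together were taken. The member with the fewest UMIs was *Col4a3* with 47, and the symbol left out was *Col10a1* with 2. By protein structure, 11 of the genes were fibrillar, 8 belonged to basement membranes, 9 were fibril-associated, 6 encoded type VI chains, 2 encoded short-chain network collagens, 4 encoded transmembrane collagens and 3 were of other kinds.

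The study followed lineages of the developing murine pancreas by single-cell RNA sequencing on the 10x platform, and 8 independent libraries were used. Live cells of wild-type Swiss Webster embryos were loaded with version 1 kits at E12.5, at E14.5 in 2 batches from separate litters, and lastly at E17.5, and the E12.5 and E17.5 libraries belonged to batch 2, collected on another day than batch 1. The same 3 stages of Swiss Webster embryos were run with version 2 kits once live CD140a- cells had been sorted, which removes cells with PDGFRA on their surface, and the 2 wells at E17.5 came from the same suspension and were summed. The last library, also made with a version 2 kit, held E14.5 cells of Fev-Cre;ROSA26mTmG embryos, in which Cre under the control of Fev switches membrane tdTomato to GFP. Its sorted GFP+ cells, the Fev lineage, were loaded together with sorted tdTomato+ GFP- cells, so that the sort set their proportion (2534 of its 4409 epithelial-like cells were endocrine-like), and these mice were kept on a C57BL/6J background. Every library pooled the pancreata of several embryos, so the pool was the sample and no allele or treatment other than the reporter pair distinguished the groups.

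Collagen chains assemble into trimers in the endoplasmic reticulum, where hydroxylases and chaperones act on them, and the trimers are then trimmed and cross-linked outside the cell. Fibrillar collagens form the ropes of connective tissue, type IV collagen forms the sheet under epithelia and endothelia, and fibril-associated collagens decorate the fibres. In the pancreas the fibrils are known as a product of mesenchyme, while the basement membrane separates the epithelium and the vessels from the tissue around them.

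With the wells at version 2 E17.5 counted singly, libraries held 3849 to 13197 barcodes and 15671934 to 127151679 UMIs. In all 57982 of 66017 barcodes had 200 or more genes and were kept as cells. At version 1 E17.5 haemoglobin genes took 60.9% of UMIs and 2326 of 4635 barcodes fell under 200 genes, so that library stood apart. Libraries of the same kit shared 10 to 155 cell barcodes, or 0.433% to 1.79% of the smaller library. Cells were clustered and named without any collagen gene. The names came from the markers counted here, so the counts describe the sums and do not test the names. A marker counted as held if any UMI of it was found, and mesenchymal-like sums also held 10 to 11 of 11 mural markers. Mesenchymal-like sums held 9 to 10 of 10 mesenchymal markers, mesothelial-like sums 7 of 7, mural-like sums 10 to 11 of 11, endothelial-like sums 10 of 10 and glial-like sums 7 to 8 of 8. Mesenchymal markers were also present in mesothelial-like cells, at 1204 to 2595 summed CPM (UMIs per 1000000 UMIs of the class in a library), and in mural-like cells, at 1261 to 4024, against 3018 to 7317 in mesenchymal-like cells. Classes of fewer than 20 cells in a library were left out, which removed the mesenchymal-like class of version 2 E14.5 (19 cells) and E17.5 (0 cells) and the endothelial-like class of Fev-Cre. The 1086 mesenchymal-like cells of version 2 E12.5 had passed a sort against PDGFRA.

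Levels of single genes are given in the same unit. The kits count the 3′ ends of transcripts, so that a level does not scale with the length of the gene. The stretches of genome just before the start of 7 members are shown because these genes led the differences between classes or stages that follow. They were taken from RefSeq on GRCm38.p6 and end where the GENCODE M21 gene begins, except that of *Col15a1*, which ends short of that start. RefSeq listed 2 windows each for *Col6a2*, *Col18a1* and *Col9a1*, and the one at the GENCODE start is shown. The windows of *Col4a5* and *Col18a1* ran past that start and were trimmed there from 250 to 216 and 232 bases. Capitals mark the letters of 3 promoter motifs, which were the CCAAT box, the GC box written GGGCGG, and the TATA box written TATAAA, searched on both strands. A motif that lies on the opposite strand is printed as its reverse complement.
*Col3a1*, chr1:45311288-45311537, plus strand: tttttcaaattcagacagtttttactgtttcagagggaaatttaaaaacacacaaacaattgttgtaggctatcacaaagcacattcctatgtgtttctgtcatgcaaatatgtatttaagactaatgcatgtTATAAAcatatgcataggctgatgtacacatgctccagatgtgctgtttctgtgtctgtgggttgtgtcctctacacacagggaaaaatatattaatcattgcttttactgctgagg
*Col6a2*, chr10:76623631-76623880, minus strand: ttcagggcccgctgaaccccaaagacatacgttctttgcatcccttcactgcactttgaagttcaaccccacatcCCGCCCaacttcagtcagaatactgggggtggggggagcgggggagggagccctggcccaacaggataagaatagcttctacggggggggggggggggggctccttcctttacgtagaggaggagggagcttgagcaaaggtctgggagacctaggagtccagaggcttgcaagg
*Col4a5*, chrX:141475169-141475384, plus strand: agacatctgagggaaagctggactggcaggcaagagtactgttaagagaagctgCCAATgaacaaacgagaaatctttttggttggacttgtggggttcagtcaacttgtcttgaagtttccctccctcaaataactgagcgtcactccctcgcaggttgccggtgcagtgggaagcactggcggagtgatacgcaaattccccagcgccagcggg
*Col4a6*, chrX:141474077-141474326, minus strand: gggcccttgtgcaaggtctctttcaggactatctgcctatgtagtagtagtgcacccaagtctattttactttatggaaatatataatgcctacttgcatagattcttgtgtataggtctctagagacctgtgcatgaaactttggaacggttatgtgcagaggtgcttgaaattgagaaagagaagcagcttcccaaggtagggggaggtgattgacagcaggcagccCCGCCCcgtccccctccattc
*Col15a1*, chr4:47207762-47208011, plus strand: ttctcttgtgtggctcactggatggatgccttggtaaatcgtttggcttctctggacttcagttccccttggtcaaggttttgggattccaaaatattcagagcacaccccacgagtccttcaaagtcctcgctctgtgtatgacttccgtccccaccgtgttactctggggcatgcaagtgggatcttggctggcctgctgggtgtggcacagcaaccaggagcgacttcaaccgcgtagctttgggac
*Col18a1*, chr10:77166549-77166780, minus strand: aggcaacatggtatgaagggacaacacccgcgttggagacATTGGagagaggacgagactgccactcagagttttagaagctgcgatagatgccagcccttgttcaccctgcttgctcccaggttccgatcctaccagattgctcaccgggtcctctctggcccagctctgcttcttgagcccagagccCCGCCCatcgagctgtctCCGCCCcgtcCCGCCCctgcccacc
*Col9a1*, chr1:24177360-24177609, plus strand: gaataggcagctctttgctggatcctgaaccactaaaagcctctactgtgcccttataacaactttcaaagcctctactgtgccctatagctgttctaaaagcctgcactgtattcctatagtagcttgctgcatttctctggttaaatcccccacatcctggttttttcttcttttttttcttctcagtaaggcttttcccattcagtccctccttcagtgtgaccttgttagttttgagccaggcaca

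Of the 7 printed stretches that of *Col3a1* alone held TATAAA, those of *Col4a5* and *Col18a1* held CCAAT, and those of *Col6a2*, *Col4a6* and *Col18a1* held GGGCGG. The untrimmed window of *Col4a5* also held GGGCGG. No such letters stood in the windows printed for *Col15a1* and *Col9a1*, while the second window of *Col9a1* held CCAAT. Untrimmed windows of 250 bases were listed for 34 of the 43 members, 37 windows in all. Of these, 13 held CCAAT (35.1%, against 33.8% of all 32851 promoters), 22 held GGGCGG (59.5%, against 32.7%) and 4 held TATAAA (10.8%, against 12.4%). *Col4a5* and *Col4a6* run in opposite directions on chromosome X from starts 1308 bases apart. *Col4a1* and *Col4a2* are arranged likewise on chromosome 8 and overlap by 22 bases at their starts.

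Mesenchymal-like cells held a larger share of collagen transcripts than mesothelial-like cells in 6 of 6 libraries and than mural-like cells in 5 of 6, the exception being version 1 E12.5 (0.217% against 0.231%). Mesothelial-like cells were above mural-like cells in 4 of 8 libraries. The 43 genes took 0.161% to 1.14% of mesenchymal-like UMIs (median 0.557%, n = 6 libraries), 0.131% to 0.564% of mural-like UMIs (median 0.332%, n = 8) and 0.124% to 0.816% of mesothelial-like UMIs (median 0.293%, n = 8). Endothelial-like cells gave 0.0543% to 0.204% (median 0.137%, n = 7), glial-like cells 0.0399% to 0.347% (median 0.0692%, n = 8) and epithelial-like cells 0.0153% to 0.0539% (median 0.0332%, n = 8). Immune-like cells held 0.0039% to 0.0276% and erythroid-like cells 0.0035% to 0.0478%, the latter highest at version 1 E17.5. These shares give the collagen RNA counted in cells of other lineages, and its source was not tested. The ranges of the first 3 classes overlapped. By medians, which cover unlike sets of libraries because mesenchymal-like cells lacked version 2 E14.5 and E17.5, mesenchymal-like cells led for 22 of the 43 genes. Mesothelial-like cells led for 7 genes, endothelial-like, epithelial-like and glial-like cells for 4 each, and mural-like cells for 2.

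**Figure D1:**
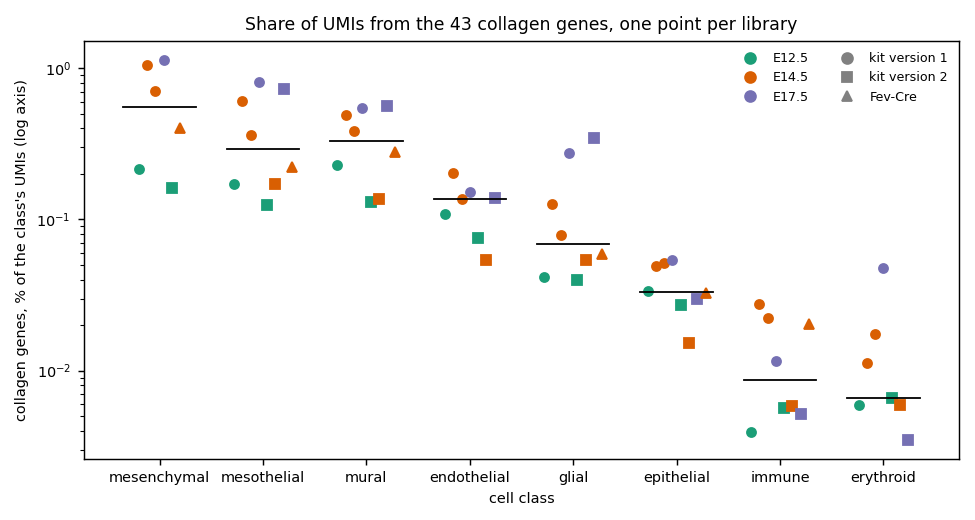
Share of a class's UMIs that came from the 43 collagen genes (percent, log axis) in 8 cell classes. Each point is a library, coloured by stage and shaped by kit, and the line is the median; mesenchymal-like cells had the highest median (0.557%) and E17.5 points lay above E12.5 points of the same kit in 6 of the classes.

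**Figure D2:**
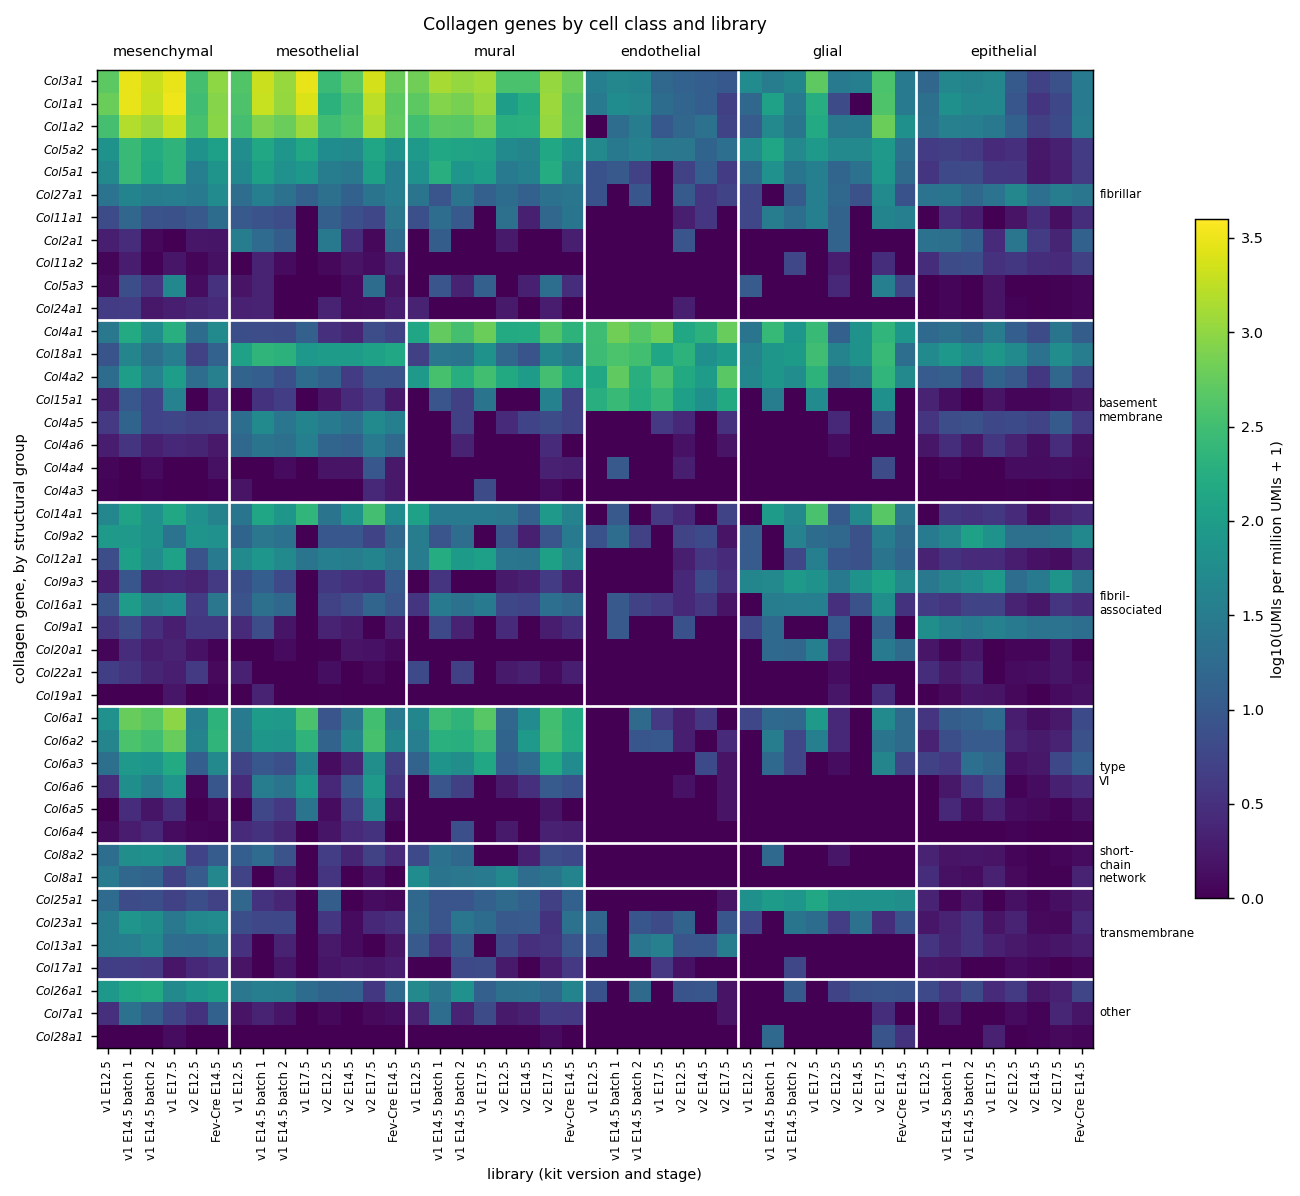
Level of each collagen gene (rows, by structural group) in each class and library (columns), as log10 of CPM + 1. Types I, III and VI are high in the mesenchymal, mesothelial and mural columns, while Col4a1 and Col15a1 peak in endothelial columns and Col9a1 in epithelial columns.

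To ask which collagens set the classes apart, each class was compared with the mesenchymal-like cells of the same libraries, and a gene was called at an edgeR adjusted p below 0.05 and at least 2-fold. Epithelial-like cells differed in 31 of 37 members tested, with 5 higher and 26 lower, where 34.0% of all genes tested were called (18.6% higher, 15.4% lower). Endothelial-like cells differed in 26 of 29 (4 higher, 22 lower, against 23.5% of all genes, 9.42% higher and 14.1% lower) and glial-like cells in 26 of 33 (4 higher, 22 lower, against 17.7%, 7.36% higher and 10.3% lower). Mesothelial-like cells differed in 23 of 36 (6 higher, 17 lower, against 19.1%, 11.4% higher and 7.70% lower) and mural-like cells in 12 of 29 (3 higher, 9 lower, against 6.92%, 3.56% higher and 3.35% lower). The median log2 fold change of the members tested was -3.43 in epithelial-like, -4.38 in endothelial-like (-3.70 with genes at 0 set to their bound), -2.12 in glial-like (-2.08 with bounds), -0.97 in mesothelial-like and -0.78 in mural-like cells. Over all genes it was between -0.17 and 0.02 in these comparisons. The calls rest on 6 libraries, or 5 for endothelial-like cells. Without the library as a block 12 members were called in mesothelial-like, 5 in mural-like and 17 in glial-like cells, and 15, 4 and 17 after the UMIs of erythroid-like cells were subtracted. Shares of all genes called under these settings are not given, so the counts cannot show whether members shifted more than other genes.

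The abundant fibrillar collagens were high in mesenchymal-like, mesothelial-like and mural-like cells alike. Type I collagen is a trimer of the *Col1a1* and *Col1a2* chains, and *Col3a1* encodes the type III homotrimer that is laid down with it. *Col1a1* stood at 315 to 3224 CPM in mesenchymal-like cells (median 1414), 206 to 2550 in mesothelial-like cells (median 785) and 103 to 1134 in mural-like cells (median 612). *Col3a1* ranged from 339 to 3058 (median 1513), 285 to 3011 (median 855) and 367 to 1355 (median 873) in the same classes, and *Col1a2* had medians of 1028, 554 and 485. Mesothelial-like levels were lower by less than the call needs for *Col1a1* (log2 fold change -0.70, SE 0.07, adjusted p = 1.32e-05), *Col1a2* (-0.66, SE 0.13, adjusted p = 0.00196) and *Col3a1* (-0.49, SE 0.10, adjusted p = 0.00156). Mural-like cells had less *Col1a1* (-1.28, SE 0.16, adjusted p = 5.47e-05) and *Col1a2* (-1.07, SE 0.16, adjusted p = 0.000238), while *Col3a1* was not called there (-0.60, SE 0.19, adjusted p = 0.0442).

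Endothelial-like and epithelial-like cells carried little of these fibrillar genes, and glial-like cells little before E17.5. *Col3a1* had medians of 14.8 CPM in endothelial-like, 21.95 in epithelial-like and 38.9 in glial-like cells, and *Col1a1* of 17.7, 24.3 and 29.6 in the same order. At E17.5 the 11 fibrillar genes took 0.104% of glial-like UMIs in version 1 and 0.170% in version 2, the latter above mesenchymal-like cells of version 2 E12.5 (0.115%), and *Col1a1* and *Col1a2* reached 3.25 and 4.89 UMIs per glial-like cell. The version 2 E17.5 library has no mesenchymal-like class and is outside the fold changes that follow. The log2 fold change of *Col1a1* was -5.59 in endothelial-like (SE 0.30, adjusted p = 4.81e-11), -5.45 in glial-like (SE 0.20, adjusted p = 4.54e-16) and -5.37 in epithelial-like cells (SE 0.20, adjusted p = 1.69e-07), which is 41.4-fold lower in the last. *Col3a1* was 46.2-fold and *Col5a2*, a type V chain that limits fibril width, 42.7-fold lower in epithelial-like cells (adjusted p = 1.81e-07 and 4.93e-07). Erythroid-like cells held 0.00943 to 1.17 UMIs of *Col1a1* per cell, and endothelial-like and epithelial-like cells lay above the erythroid-like cells of their library in only 4 of 7 libraries each, glial-like cells in 2 of 7. The part of RNA from outside the cells in these levels was not tested.

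*Col2a1*, the type II collagen best known from cartilage, went the other way from types I and III. It reached 31.8 CPM in mesothelial-like cells (lowest 0, median 13.8, n = 8) and 25.3 in epithelial-like cells (lowest 1.37, median 12.1, n = 8), against 0 to 1.90 in mesenchymal-like cells (median 0.63, n = 6). It was 28.2-fold higher in mesothelial-like cells (log2 fold change 4.82, SE 0.28, adjusted p = 4e-07), with the higher value in 5 of 6 libraries, and 23.7-fold higher in epithelial-like cells (4.57, SE 0.29, adjusted p = 2.45e-06). *Col11a2*, a partner of type II fibrils, was 11.1-fold higher in epithelial-like cells (3.47, SE 0.47, adjusted p = 0.000214) at 1.78 to 6.42 CPM against 0.0974 to 0.949. *Col11a1* had its highest median in glial-like cells (25.7 CPM) without a call against mesenchymal-like cells there (0.70, SE 0.32, adjusted p = 0.118). Of the 11 fibrillar genes, 10 were tested in mesothelial-like cells with 1 higher and 1 lower, close to the 11.4% and 7.70% of all genes. Mural-like cells had 2 of 8 tested lower (3.35% of all genes), endothelial-like cells 8 of 8 (14.1%) and glial-like cells 7 of 9 (10.3%). Epithelial-like cells had 8 of 11 lower (15.4% of all genes) and 2 of 11 higher, the latter close to the 18.6% of all genes.

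Basement membrane collagens divided the classes in another way. *Col4a1* and *Col4a2* encode the chains of the common type IV network, and they were high in the cells of the vessel wall and low in mesothelium. *Col4a1* stood at 142 to 663 CPM in endothelial-like cells (median 441, n = 7), 128 to 626 in mural-like cells (median 279, n = 8), 17.51 to 186 in mesenchymal-like cells (median 53.2, n = 6) and 1.37 to 11.7 in mesothelial-like cells (median 5.82, n = 8). Endothelial-like and mural-like levels overlapped, and mesothelial-like levels lay below all mesenchymal-like levels. Against mesenchymal-like cells *Col4a1* was 5.83-fold higher in endothelial-like (log2 fold change 2.54, SE 0.22, adjusted p = 3.66e-08) and 4.76-fold higher in mural-like cells (2.25, SE 0.17, adjusted p = 3.52e-07), and 10.4-fold lower in mesothelial-like cells (-3.37, SE 0.21, adjusted p = 2.52e-07). *Col4a2* was 5.26-fold and 4.49-fold higher in the first pair (adjusted p = 1.86e-08 and 3.47e-07), and its log2 fold change in mesothelial-like cells was -1.73 (SE 0.31, adjusted p = 0.000932). The ratio of *Col4a1* to *Col4a2* was 0.963 to 1.88 in mesenchymal-like (n = 6), 1.03 to 1.99 in mural-like (n = 8), 0.937 to 2.38 in endothelial-like (n = 7) and 0.176 to 0.864 in mesothelial-like cells (n = 5 libraries with enough UMIs for a ratio).

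Mesothelial-like cells instead carried *Col4a5* and *Col4a6*, the pair of chains that form a distinct type IV network and whose windows on the X chromosome were printed above. *Col4a5* ranged from 18.8 to 52.6 CPM in mesothelial-like cells (median 32.2, n = 8) against 2.90 to 13.6 in mesenchymal-like cells (median 4.25, n = 6). *Col4a6* ranged from 11.5 to 35.0 (median 18.3) against 0.739 to 2.53 (median 1.21). For both genes the mesothelial-like range lay above that of every other of the 6 classes, with epithelial-like cells pooled. Ductal-like cells taken alone reached 19.7 CPM of *Col4a5*, above the lowest mesothelial-like value. *Col4a6* was 15.4-fold higher (log2 fold change 3.94, SE 0.23, adjusted p = 1.64e-07) and *Col4a5* 6.31-fold higher (2.66, SE 0.17, adjusted p = 2.65e-07) than in mesenchymal-like cells, in 6 of 6 libraries.

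**Figure D3:**
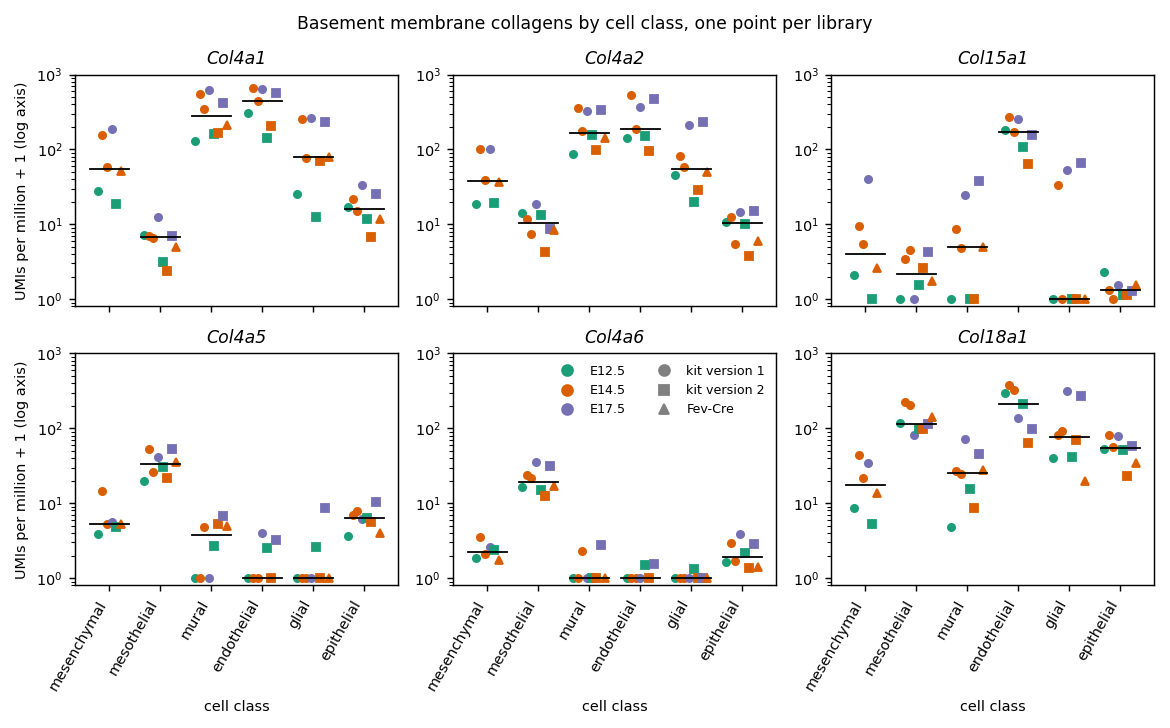
Levels of 6 basement membrane collagens (CPM + 1, log axis) in 6 classes, with a point per library and a line at the median. Col4a1 and Col4a2 are high in endothelial-like and mural-like cells and lowest in mesothelial-like or epithelial-like cells, Col4a5 and Col4a6 are highest in mesothelial-like cells and Col15a1 in endothelial-like cells.

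*Col15a1* and *Col18a1* encode the multiplexins, proteoglycans of the basement membrane, and *Col18a1* is the source of endostatin. *Col15a1* stood at 62.8 to 267 CPM in endothelial-like cells (median 169, n = 7), and the highest value in any library of the 5 other classes was 63.9, in glial-like cells. It was 34.8-fold higher than in mesenchymal-like cells (log2 fold change 5.12, SE 0.55, adjusted p = 7.23e-07, 5 of 5 libraries). *Col18a1* was high in 4 classes, with medians of 213 CPM in endothelial-like, 115 in mesothelial-like, 74.7 in glial-like and 53.8 in epithelial-like cells, against 16.6 in mesenchymal-like cells. The increase was 14.9-fold in endothelial-like (3.90, SE 0.39, adjusted p = 3.05e-07), 9.37-fold in mesothelial-like (3.23, SE 0.30, adjusted p = 6.35e-06), 3.86-fold in glial-like (1.95, SE 0.30, adjusted p = 2.14e-05) and 3.47-fold in epithelial-like cells (1.80, SE 0.33, adjusted p = 0.00142). When the UMIs of erythroid-like cells were subtracted per cell, which leaves out the Fev-Cre library, *Col18a1* lost its call in the last 3 (adjusted p = 0.0564, 0.058 and 0.172), while its log2 fold changes were 3.55, 2.69 and 2.30, above those without subtraction. Its UMIs per cell were above those of erythroid-like cells in 7 of 7 libraries in each of the 3 classes. *Col4a3* and *Col4a4*, known from the kidney glomerulus, had 47 and 302 UMIs in all libraries together and reached at most 5.85 and 9.21 CPM in a library. With *Col6a4*, *Col19a1* and *Col28a1* they had too few UMIs to be tested in any comparison.

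Fibril-associated collagens were spread over more classes than any other group. *Col14a1*, which binds type I fibrils, had similar medians in mesothelial-like (73.1 CPM), mesenchymal-like (66.0) and glial-like cells (48.2), and *Col12a1*, which does the same, was highest in mural-like cells (67.6, range 23.6 to 168). Neither was called between mural-like or mesothelial-like and mesenchymal-like cells. Both were lower in endothelial-like cells, where *Col12a1* had 2 UMIs against 1392 in mesenchymal-like cells, a ratio of 54.0 with a counting interval of 14.9 to 446. *Col9a2* was the most abundant type IX chain in mesenchymal-like cells (22.9 to 88.5 CPM, median 71.2), with a median of 38.1 in epithelial-like cells. In each of the 3 data sets the cluster with the most *Col9a2* was an epithelial one led by *Neurog3*, at 224, 121 and 193 CPM in version 1, version 2 and Fev-Cre, where the highest mesenchymal-like clusters had 131, 85.1 and 105. It was 3.91-fold lower in mural-like cells (log2 fold change -1.97, SE 0.25, adjusted p = 5.95e-05) and lower in mesothelial-like cells (-2.34, SE 0.20, adjusted p = 3.68e-06).

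Of the other type IX chains, which coat type II fibrils, *Col9a3* was high in glial-like and epithelial-like cells and *Col9a1* in epithelial-like cells. *Col9a3* stood at 27.9 to 122 CPM in glial-like cells (median 59.1, n = 8) and 18.5 to 85.6 in epithelial-like cells (median 35.9, n = 8), against 0.8502 to 8.22 in mesenchymal-like cells (median 1.499, n = 6). It was 21.5-fold higher in glial-like (log2 fold change 4.43, SE 0.39, adjusted p = 2.96e-09) and 16.6-fold higher in epithelial-like cells (4.05, SE 0.40, adjusted p = 2.63e-05), in 6 of 6 libraries each. *Col9a1* was 12.1-fold higher in epithelial-like cells (3.59, SE 0.28, adjusted p = 6.99e-06), at 19.3 to 61.8 CPM against 0.980 to 5.69, with no overlap with any of the 5 other classes. *Col20a1* was 13.5-fold higher in glial-like cells (3.76, SE 0.76, adjusted p = 0.000519) in 5 of 6 libraries, and it was at 0 in the glial-like cells of version 1 E12.5 and version 2 E14.5. Over the 6 libraries glial-like cells held 18 UMIs of it among 4142971, and mesenchymal-like cells 25 among 50069081. *Col16a1* was lower in all 5 classes, from a log2 fold change of -1.01 in mural-like (SE 0.23, adjusted p = 0.00684) to -3.37 in epithelial-like cells (SE 0.48, adjusted p = 0.000272). *Col19a1* and *Col22a1* stayed at or below 1.94 and 5.17 CPM in every library of the 6 classes.

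Type VI collagen, the beaded filament around connective tissue cells, is built from *Col6a1*, *Col6a2* and a further chain, usually *Col6a3*. *Col6a1* stood at 33.2 to 928 CPM in mesenchymal-like cells (median 334), 14.3 to 462 in mural-like cells (median 187) and 7.77 to 368 in mesothelial-like cells (median 57.8). *Col6a2* followed it with medians of 269, 172 and 57.9, and *Col6a3* with 62.4, 55.5 and 5.52. *Col6a3* was 11.2-fold lower in mesothelial-like cells (log2 fold change -3.49, SE 0.25, adjusted p = 8.89e-07), more than *Col6a1* (-2.17, SE 0.19) and *Col6a2* (-1.86, SE 0.17), although the difference between the chains was not tested. Mural-like cells had lower *Col6a1* (-0.88, SE 0.12, adjusted p = 0.000114) and *Col6a2* (-0.83, SE 0.13, adjusted p = 0.000417) without reaching 2-fold. Endothelial-like cells held 0 UMIs of *Col6a3* among 2834426, against 1889 among 36537870 in mesenchymal-like cells, at least 48.8-fold lower. Counts of 0 refer to the libraries of the comparison, and over all libraries endothelial-like cells held 3 UMIs of *Col6a3*, 1 of *Col25a1* and 1 of *Col7a1*, and glial-like cells 1 of *Col7a1*. *Col6a1* was 42.5-fold lower in epithelial-like cells (-5.41, SE 0.15, adjusted p = 8.32e-08).

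The alternatives to *Col6a3* among the type VI chains followed other patterns. *Col6a5* was higher in mesothelial-like cells (log2 fold change 2.097, SE 0.536, adjusted p = 0.0104), where it ranged from 0 to 51.7 CPM. *Col6a6* had close medians in mesenchymal-like (20.8 CPM) and mesothelial-like cells (16.1) and was lower in mural-like cells (-2.32, SE 0.48, adjusted p = 0.00376). No UMI of *Col6a6* was counted in glial-like cells, at least 24.96-fold lower than the 905 UMIs of mesenchymal-like cells. *Col6a4* stayed at or below 6.48 CPM.

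The short-chain network collagens of type VIII were highest in mural-like cells for *Col8a1* and in mesenchymal-like cells for *Col8a2*. *Col8a1*, a chain known from vessel walls, was at 18.3 to 55.6 CPM in mural-like cells (median 27.6, n = 8) and 3.92 to 44.8 in mesenchymal-like cells (median 13.7, n = 6), 2.04-fold higher (log2 fold change 1.03, SE 0.27, adjusted p = 0.0161) with the higher value in 5 of 6 libraries and overlapping ranges. It was 10.9-fold lower in mesothelial-like cells (-3.45, SE 0.53, adjusted p = 0.000334). *Col8a2* stood at 4.38 to 63.3 CPM in mesenchymal-like cells (median 33.6) and was 3.81-fold lower in mural-like (-1.93, SE 0.30, adjusted p = 0.000373) and 45.2-fold lower in epithelial-like cells (-5.50, SE 0.31, adjusted p = 1.03e-06). The mural-like call of *Col8a2* was lost without the library block (adjusted p = 0.175), with the version 2 kit alone (0.184) and with the erythroid-like UMIs subtracted (0.0946). The version 2 kit alone left only version 2 E12.5 and Fev-Cre for this comparison. Endothelial-like cells had 0 UMIs of either gene, at least 16.96-fold lower for *Col8a1* and at least 32.99-fold lower for *Col8a2*. Glial-like cells had 0 UMIs of *Col8a1*, at least 34.8-fold lower.

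The transmembrane collagens, which span the plasma membrane, were mostly mesenchymal. *Col23a1* stood at 26.5 to 75.6 CPM in mesenchymal-like cells (median 50.6), above the range of every other class. It was 14.9-fold lower in mesothelial-like (log2 fold change -3.90, SE 0.23, adjusted p = 1.68e-07) and lower in mural-like cells (-1.58, SE 0.22, adjusted p = 0.000121). *Col13a1*, known from the neuromuscular junction, stood at 17.2 to 46.2 CPM in mesenchymal-like cells (median 27.7) and was 28.1-fold lower in mesothelial-like (-4.81, SE 0.24, adjusted p = 5.64e-08) and 4.16-fold lower in mural-like cells (-2.06, SE 0.25, adjusted p = 4.71e-05). Glial-like cells had 0 UMIs of *Col13a1* against 1507 in mesenchymal-like cells, at least 41.6-fold lower, whereas endothelial-like cells reached 35.4 CPM with no call (-0.80, SE 0.38, adjusted p = 0.121). *Col25a1* was the exception. Its level of 58.5 to 141 CPM in glial-like cells (median 71.1) lay above every other class and was 9.69-fold higher than in mesenchymal-like cells (3.28, SE 0.29, adjusted p = 2.68e-09, 6 of 6 libraries). Endothelial-like cells had 0 UMIs of *Col25a1*, at least 9.77-fold lower. *Col17a1*, a hemidesmosome component, stayed at or below 5.85 CPM.

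Of the remaining 3 genes, *Col26a1* was a mesenchymal gene at 48.4 to 160 CPM (median 91.8), 2.69-fold lower in mural-like cells (log2 fold change -1.43, SE 0.17, adjusted p = 3.3e-05) and lower in all 4 other classes. *Col7a1*, which forms anchoring fibrils, ranged from 2.05 to 21.5 CPM in mesenchymal-like cells and was 15.9-fold lower in mesothelial-like cells (-3.99, SE 0.35, adjusted p = 4.3e-06). It was at least 6.23-fold lower in endothelial-like and at least 11.1-fold lower in glial-like cells, which had 0 UMIs. *Col5a3*, a minor type V chain, was likewise at 0 in endothelial-like cells (at least 5.12-fold lower), and *Col24a1* at 0 in glial-like cells (at least 2.79-fold lower, adjusted p = 0.0397). The call of *Col5a3* was lost with DESeq2 (adjusted p = 0.265) and with the erythroid-like UMIs subtracted (0.0674). The call of *Col24a1* was lost without Fev-Cre (adjusted p = 0.0671), version 1 E14.5 batch 2 (0.0542) or version 1 E17.5 (0.0512), and with DESeq2 (0.653). *Col28a1* had a median of 0 CPM in every class but epithelial-like cells, where it was 0.0453. Its highest value of 16.1 was in the 22 glial-like cells of version 1 E14.5 batch 1, which held 62208 UMIs of all genes, too few to give a level.

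Glial-like sums were small, from 22 to 325 cells, and in some libraries held other cells' markers. Their summed neuronal markers ran from 75.5 to 2083 CPM, mesenchymal markers from 78.3 to 804 and mural markers from 48.3 to 1304. *Col9a3* and *Col25a1* were above erythroid-like cells per cell in 7 of 7 libraries and *Col20a1* in 5 of 7. The part of the other cells in the glial-like levels was not tested.

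Endothelial-like and mural-like cells, which build the vessel wall together, were then compared directly in 7 libraries. Of 22 members tested, 18 were called, with 3 higher and 15 lower in endothelial-like cells, where 21.1% of all genes were called (10.8% higher, 10.4% lower). The count was 9 without the library block. *Col15a1* was 15.6-fold higher (log2 fold change 3.96, SE 0.47, adjusted p = 3.14e-06), *Col18a1* 7.96-fold higher (2.99, SE 0.40, adjusted p = 1.19e-05) and *Col13a1* 4.02-fold higher (2.01, SE 0.49, adjusted p = 0.00367), the last in 5 of 7 libraries. *Col4a1* (0.38, SE 0.12, adjusted p = 0.0225) and *Col4a2* (0.32, SE 0.11, adjusted p = 0.0318) differed by far less than 2-fold. Lower in endothelial-like cells were the 7 fibrillar genes tested of 11, the 3 type VI genes tested of 6, and *Col8a1*, the one type VIII gene tested. Endothelial-like cells had 0 UMIs of *Col8a1* against 230 in mural-like cells, at least 49.97-fold lower, and 3 UMIs of *Col6a3* against 673, a ratio of 146 with a counting interval of 49.8 to 711. *Col6a1* was 87.2-fold, *Col6a2* 70.6-fold and *Col12a1* 49.6-fold lower (adjusted p = 9.68e-09, 6.68e-10 and 1.79e-09).

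Within the epithelium, more collagen genes were higher in ductal-like than in acinar-like cells. In 8 libraries 14 of 26 members were called between ductal-like and acinar-like cells, with 12 higher and 2 lower in ductal-like cells, where 15.8% of all genes were called (9.88% higher, 5.92% lower). The count was 9 without the library block and 8 with version 1 alone. All 43 genes took 0.0368% to 0.117% of ductal-like UMIs and 0.0047% to 0.0235% of acinar-like UMIs, and the ranges did not overlap. *Col9a1* stood at 53.8 to 230 CPM in ductal-like and 0 to 11.8 in acinar-like cells, 13.8-fold higher (log2 fold change 3.79, SE 0.28, adjusted p = 2.62e-07). *Col2a1* was 13.6-fold, *Col9a3* 11.7-fold and *Col9a2* 8.74-fold higher (adjusted p = 1.07e-05, 3.79e-07 and 1.46e-07), and *Col11a2* was higher in 6 of 8 libraries (2.54, SE 0.60, adjusted p = 0.00549). The ranges of *Col9a1*, *Col9a2*, *Col9a3*, *Col18a1*, *Col4a1* and *Col27a1* did not overlap between the classes, and those of the other members tested did. The share of all genes without overlap was not computed.

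**Figure D4:**
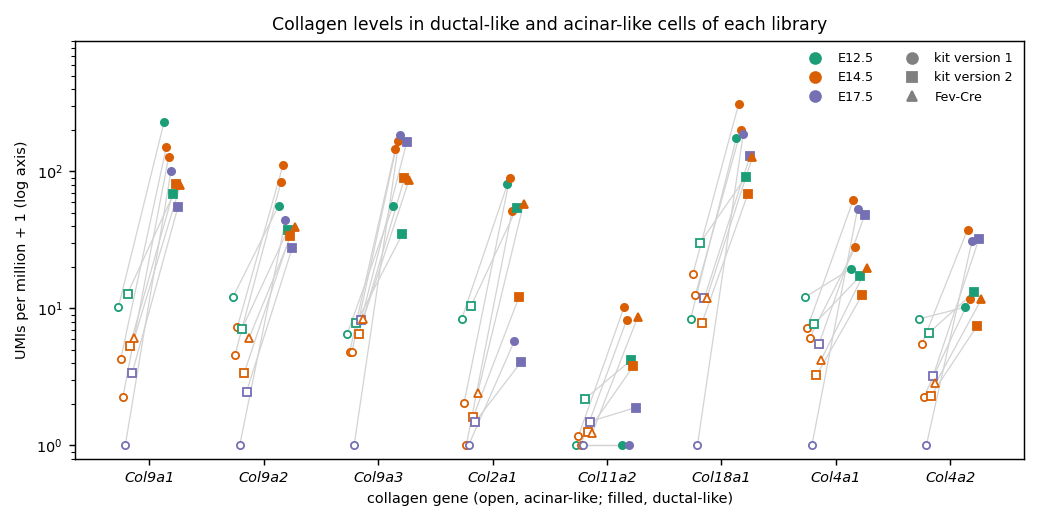
Levels (CPM + 1, log axis) of collagen genes in acinar-like (open, left) and ductal-like cells (filled, right), joined by a line for each of the 8 libraries. Colour gives the stage and shape the kit or Fev-Cre; the lines of Col9a1 and Col9a3 rise from acinar-like to ductal-like cells in every library.

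The basement membrane genes tested were all higher in ductal-like cells, 5 of 5. *Col18a1* stood at 67.3 to 310 CPM against 0 to 28.8, 8.13-fold higher (log2 fold change 3.02, SE 0.26, adjusted p = 1.03e-06). *Col4a1* was 4.26-fold and *Col4a2* 4.23-fold higher (adjusted p = 1.19e-05 and 4.32e-05), *Col4a6* had a log2 fold change of 2.11 (SE 0.35, adjusted p = 0.000582) and *Col4a5* of 1.38 (SE 0.21, adjusted p = 0.00016). The lower genes were *Col11a1* (-2.66, SE 0.48, adjusted p = 0.000917) and *Col5a2* (-1.32, SE 0.37, adjusted p = 0.012). No type VI gene was called among 3 tested.

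Collagen transcripts took a larger share of UMIs at E17.5 than at E12.5 in the connective tissue classes. The share from the 43 genes was higher 5.26-fold in mesenchymal-like cells (version 1), 4.74-fold and 5.88-fold in mesothelial-like cells (versions 1 and 2) and 2.36-fold and 4.30-fold in mural-like cells. The endothelial-like share was 1.40-fold and 1.85-fold higher, and the epithelial-like share went from 0.0337% to 0.0539% and from 0.0270% to 0.0298%. In glial-like cells the share went from 0.0416% to 0.273% in version 1 and from 0.0399% to 0.347% in version 2, for which no test was made. Stage went together with litter and with the time of dissociation, and these cannot be told apart. In erythroid-like cells the share was 8.10-fold higher at E17.5 in version 1 and 0.530-fold in version 2.

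In mesenchymal-like cells 18 of 37 members were called between E17.5 and E12.5, with 16 higher and 2 lower, where 8.90% of all genes were called (6.64% higher, 2.26% lower). This comparison used 5 libraries with kit as a term, but version 2 held mesenchymal-like cells at E12.5 alone, so that it set 1 version 1 library at E17.5 against 1 at E12.5. The fit had 1 residual degree of freedom, from the 2 E14.5 batches, and took the rest of its spread from other genes, so the p-values do not measure the spread between replicate pools at these stages. Type VI genes rose in 4 of 5 cases tested. Within version 1, *Col6a1* went from 64.5 CPM to 581 and 455 in the E14.5 batches and then to 928, with 33.2 at version 2 E12.5 (log2 fold change 4.11, SE 0.56, adjusted p = 0.00136). *Col6a6* went from 1.84 to 61.0, 33.4 and 75.2 CPM, with 0.168 at version 2 E12.5 (5.598, SE 0.503, adjusted p = 0.000168). *Col5a3* went from 0.283 to 6.32, 2.63 and 47.4 CPM (7.56, SE 0.70, adjusted p = 0.000188), *Col15a1* from 1.13 to 8.54, 4.38 and 38.9 (5.34, SE 0.57, adjusted p = 0.000399) and *Col12a1* from 6.02 to 106, 56.9 and 113 (4.48, SE 0.48, adjusted p = 0.000395). Each of these genes was higher in all 3 later version 1 libraries than at E12.5.

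Of the abundant fibrillar genes of the mesenchyme, 1 passed the test. *Col1a2* was called (log2 fold change 2.77, SE 0.69, adjusted p = 0.0331), going from 349 CPM to 1555 and 1145 in the E14.5 batches and then to 1987 within version 1. *Col3a1* (2.88, SE 0.80, adjusted p = 0.0512) and *Col1a1* (2.67, SE 0.80, adjusted p = 0.0696) were not called, at 497 to 3058 and 609 to 3224 CPM in the same libraries. The 2 genes called lower were *Col8a1*, from 28.8 to 14.2, 13.2 and 3.92 CPM (-2.61, SE 0.47, adjusted p = 0.00638), and *Col9a2*, from 88.2 to 88.5, 70.3 and 22.9 (-1.69, SE 0.38, adjusted p = 0.0209). *Col25a1* went from 17.3 to 3.92 CPM (244 and 12 UMIs) and was not called (-1.88, SE 0.55, adjusted p = 0.0617). With stage as a linear term in days far fewer members were called. *Col8a1* lost its call without the kit term, with DESeq2, with Fev-Cre added as E14.5 and at Leiden resolution 1.

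**Figure D5:**
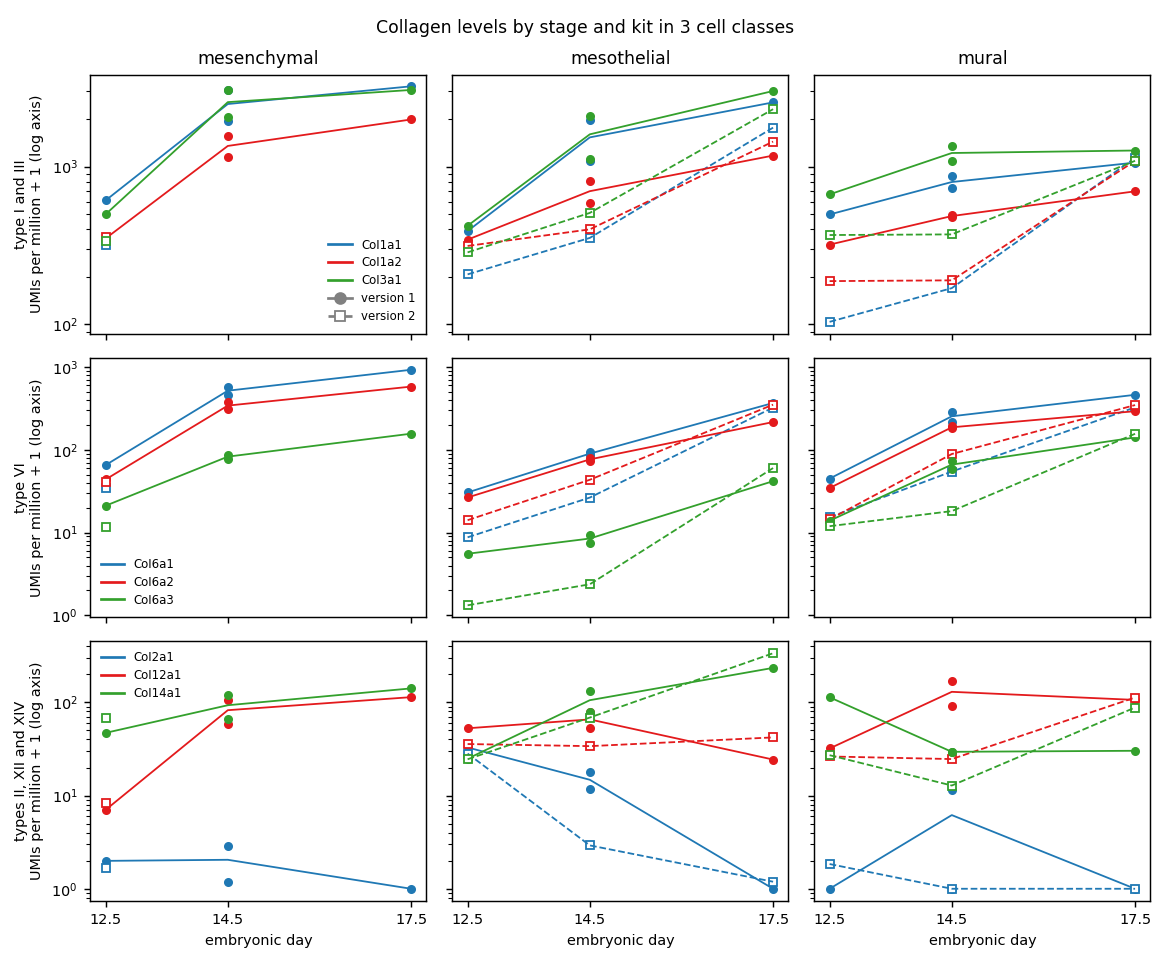
Levels (CPM + 1, log axis) against embryonic day in mesenchymal-like, mesothelial-like and mural-like cells, for types I and III (top), type VI (middle) and types II, XII and XIV (bottom). Points are libraries and lines join the stage means of a kit (version 1 solid, version 2 dashed); Col6a1 and Col6a2 rise in all 3 classes and Col2a1 falls in mesothelial-like cells.

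In mesothelial-like cells, which both kits held at every stage, 16 of 28 members were called, with 13 higher and 3 lower, where 18.3% of all genes were called (11.2% higher, 7.07% lower). No kit had replicate pools at E12.5 or E17.5. The fit had 3 residual degrees of freedom and a prior of 10.86, so its p-values took much of their spread from other genes. Mural-like, endothelial-like and epithelial-like fits also had 3. The paper splits the mesothelium into clusters specific to timepoints, which the class here pools. All 5 type VI genes tested rose. *Col6a5* went from 0 to 23.3 CPM in version 1 and from 0.321 to 51.7 in version 2 (log2 fold change 7.32, SE 0.60, adjusted p = 1.46e-06), and *Col6a3* from 4.55 to 40.8 and from 0.321 to 59.3 (6.02, SE 0.73, adjusted p = 5.2e-05). *Col6a1* went from 29.5 to 368 and from 7.77 to 324 CPM (4.75, SE 0.41, adjusted p = 2.1e-06), *Col6a2* from 25.6 to 216 and from 13.1 to 351 (4.19, SE 0.39, adjusted p = 4.18e-06), and *Col6a6* from 1.70 to 81.7 and from 1.61 to 87.1 (5.71, SE 0.47, adjusted p = 1.47e-06). In both kits every E17.5 value of these 5 genes was above the E12.5 values. The version 1 E17.5 class held only 46 cells and 171384 UMIs, so its values for *Col6a5*, *Col6a3* and *Col6a6* rest on few UMIs.

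Types I, III and XIV rose as well in mesothelial-like cells, while type II fell. *Col1a1* went from 389 to 2550 CPM in version 1 and from 206 to 1764 in version 2 (log2 fold change 3.01, SE 0.42, adjusted p = 0.000153), with 1981 and 1078 in the version 1 E14.5 batches and 352 at version 2 E14.5. *Col3a1* rose by the same log2 fold change of 3.01 (SE 0.40, adjusted p = 0.000101) and *Col14a1* by 3.71 (SE 0.34, adjusted p = 3.97e-06). *Col2a1* had 3 UMIs among 15926579 at E17.5 against 564 among 20425171 at E12.5, a ratio of 147 with a counting interval of 49.9 to 713, and stood at 16.9, 10.6 and 1.92 CPM at E14.5. *Col25a1* went from 14.2 to 0 CPM and from 10.6 to 0.317 (-4.74, SE 0.86, adjusted p = 0.00138), and *Col26a1* from 26.1 to 17.505 and from 13.6 to 2.86 (-1.85, SE 0.44, adjusted p = 0.008). The count of called members dropped to 7 without version 2 E17.5, where *Col2a1* (adjusted p = 0.18), *Col6a3* (0.0768), *Col25a1* (0.374) and *Col26a1* (0.683) lost their calls. *Col25a1* (0.551) and *Col26a1* (0.229) also lost them without version 2 E12.5.

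In mural-like cells 11 of 23 members were called and all were higher at E17.5, where 5.65% of all genes were called (4.44% higher, 1.20% lower). *Col6a1* went from 43.9 to 462 CPM in version 1 and from 14.3 to 325 in version 2 (log2 fold change 4.12, SE 0.42, adjusted p = 0.000134), *Col6a2* from 33.6 to 292 and from 13.5 to 347 (4.05, SE 0.40, adjusted p = 0.000108), and *Col6a3* from 12.9 to 140 and from 11.0 to 155 (3.82, SE 0.48, adjusted p = 0.00056). *Col15a1* had 0 UMIs among 1961352 at E12.5 and 131 among 3628003 at E17.5, at least 23.6-fold higher (adjusted p = 0.00514). *Col1a1* went from 496 to 1058 and from 103 to 1134 CPM (2.53, SE 0.51, adjusted p = 0.0111). The count of called members was 7 without version 1 E14.5 batch 2, 5 without version 1 E12.5, 6 without version 2 E12.5 and 2 without version 2 E17.5. *Col15a1* (0.0673) and *Col1a1* (0.215) lost their calls without version 2 E12.5, and *Col1a1* (0.259) and *Col6a3* (0.0526) without version 2 E17.5.

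Counts of called members with stage were small in endothelial-like and epithelial-like cells, which does not show that the other members stayed level. In endothelial-like cells 1 of 8 members was called, where 3.90% of all genes were called (2.68% higher, 1.22% lower). *Col4a1* rose from 303 to 637 CPM in version 1 and from 142 to 572 in version 2 (log2 fold change 1.66, SE 0.34, adjusted p = 0.00984). The number called was 0 to 3 when a library was left out, and *Col4a1* lost its call without version 1 E12.5 (adjusted p = 0.0545), version 2 E12.5 (0.332) or version 2 E17.5 (0.415). In epithelial-like cells 2 of 28 members were called, where 4.44% of all genes were called (3.17% higher, 1.28% lower). *Col9a3* rose from 26.3 to 85.6 CPM and from 18.5 to 71.6 (1.97, SE 0.29, adjusted p = 0.00661), and *Col2a1* fell from 21.0 to 1.70 and from 25.3 to 1.37 (-3.75, SE 0.68, adjusted p = 0.0163). Both calls were lost without version 2 E12.5 (adjusted p = 0.181 and 0.34) or version 2 E17.5 (0.125 and 0.229), DESeq2 and the fit without a low-count filter called 4 each, and the number called ranged from 0 to 5 when a library was left out. The makeup of the epithelial-like sums from ductal-like, acinar-like, endocrine-like and other epithelial cells differed between stages. Its part in these changes was not tested.

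Whether the stage effect differed between classes was tested by an interaction term in 5 libraries, with 1 residual degree of freedom per gene, so that the spread was taken from all genes together (an infinite prior) and these p-values do not measure each gene's own spread. Against mesenchymal-like cells 5 of 36 members differed in mesothelial-like cells (3.19% of all genes, 1.14% with a larger and 2.04% with a smaller effect) and 3 of 31 in endothelial-like cells (1.27% of all genes, 0.617% and 0.649%), and these 8 results were singled out after their values were seen. *Col12a1* rose in mesenchymal-like cells but went from 51.7 to 77.3, 52.0 and 23.3 CPM in version 1 mesothelial-like cells, the last from 4 UMIs, and from 34.7 to 41.1 CPM in version 2 (interaction -5.63 on the log2 scale, SE 0.53, adjusted p = 6.6e-23). *Col18a1* went from 115 to 81.7 CPM there (14 UMIs at E17.5) and from 97.4 to 115 in version 2 (-2.89, SE 0.43, adjusted p = 5.73e-09). The effect was smaller in mesothelial-like cells for *Col5a1* (-1.60) and larger for *Col14a1* (1.42). The call of *Col5a1* was lost with doublets kept and at Leiden resolution 1. *Col16a1* had 0 UMIs in the 46 mesothelial-like cells of version 1 E17.5, so its interaction (adjusted p = 0.00578) carries no bound, and in version 2 it went from 76 to 222 UMIs, 3.46-fold higher in CPM. In endothelial-like cells the stage effects of *Col15a1* (-4.63) and *Col4a1* (-1.76) were smaller than in mesenchymal-like cells. *Col18a1* (-3.28) fell in endothelial-like cells, from 296 to 136 CPM in version 1 and from 213 to 98.1 in version 2, while it rose in mesenchymal-like cells. With DESeq2, *Col5a1*, *Col14a1*, *Col16a1* and *Col4a1* lost their calls (adjusted p = 0.666, 0.502, 0.462 and 0.503).

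The machinery that folds, cross-links, binds and degrades collagen was followed through a list of 64 genes. Against mesenchymal-like cells 42 of 56 list genes tested were lower in epithelial-like cells and 2 higher, where 15.4% of all genes were lower and 18.6% higher. In endothelial-like cells 29 of 56 were lower and 4 higher (all genes 14.1% and 9.42%), and in glial-like cells 29 of 52 were lower and 1 higher (10.3% and 7.36%). Mesothelial-like cells had 14 lower and 5 higher of 53 (7.70% and 11.4%), and mural-like cells 6 lower and 4 higher of 53 (3.35% and 3.56%). *Lox*, the enzyme that starts cross-linking, was 49.5-fold and *Lum*, a proteoglycan of collagen fibrils, 71.3-fold lower in epithelial-like cells (adjusted p = 3.41e-07 and 1.07e-07), and *Lum* was 53.8-fold lower in glial-like cells (adjusted p = 2.32e-13). *Lama5*, a laminin chain of basement membranes, was higher in epithelial-like (16.6-fold, adjusted p = 4.8e-05) and mesothelial-like cells (20.5-fold, adjusted p = 1.44e-06), and *Pcolce2*, an enhancer of procollagen trimming, was 3.70-fold higher in epithelial-like cells (adjusted p = 0.00918). *Fmod*, another fibril proteoglycan, was 20.7-fold higher in mesothelial-like and 5.50-fold higher in mural-like cells (adjusted p = 5.51e-08 and 0.000433).

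Of the receptors tested, 1 of 5 was higher and 2 lower in mesothelial-like cells, 1 of 5 higher and 0 lower in mural-like, 2 of 6 higher and 3 lower in endothelial-like, and 0 higher in glial-like (2 of 5 lower) and epithelial-like cells (3 of 5 lower). Of 5 breakdown and uptake genes tested, 4, 2, 5, 4 and 5 were lower in these classes in turn and 0 higher. Of all genes, 11.4%, 3.56%, 9.42%, 7.36% and 18.6% were higher in the same classes in turn, and 7.70%, 3.35%, 14.1%, 10.3% and 15.4% lower. *Itga1*, a collagen-binding integrin chain, was 18.0-fold higher in mural-like cells (adjusted p = 1.72e-07), and *Itga2*, its relative, 103-fold higher in endothelial-like cells (adjusted p = 6.18e-05), where *Colgalt2*, a collagen galactosyltransferase, was 42.8-fold higher (adjusted p = 0.00026). *Ctsk* and *Mmp9*, both collagen-degrading enzymes, were 31.3-fold and 65.1-fold lower in mesothelial-like cells (adjusted p = 8.65e-07 and 5.66e-06), and *Mmp2* was 2.84-fold lower in mural-like cells (adjusted p = 6.62e-06), where *Lama1* was 3.40-fold lower (adjusted p = 0.00969). Endothelial-like cells had 0 UMIs of *Lama2*, at least 6.10-fold lower, and of *Mmp9*, at least 3.39-fold lower. Glial-like cells had 0 UMIs of *Itga11*, at least 7.01-fold lower, and 3.09-fold more *Lama4* (adjusted p = 0.00545). Apart from genes at 0, folds of list genes are given without UMIs or a counting interval. Large folds such as those of *Mmp9* and *Itga2* therefore give no exact size. Of the list, 17 genes were higher and 4 lower in ductal-like than in acinar-like cells among 50 tested (all genes 9.88% and 5.92%), and 2 were higher and 25 lower in endothelial-like than in mural-like cells among 48 (10.8% and 10.4%).

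Over stages more list genes were higher than lower at E17.5 in the connective tissue classes. At E17.5, 26 of 55 list genes were higher in mesenchymal-like cells and 1 lower, 25 of 48 were higher in mesothelial-like cells and 2 lower, and 17 of 48 were higher in mural-like cells and 0 lower, read against the shares of all genes given above. By role, fibril partners rose in 5 of 7, 6 of 7 and 5 of 7 cases in these classes, folding and modification genes in 7 of 18, 9 of 17 and 4 of 18, processing and cross-linking genes in 4 of 9, 5 of 7 and 3 of 7, basement membrane partners in 8 of 11, 4 of 10 and 1 of 8, receptors in 0 of 5, 1 of 3 and 2 of 4, and breakdown and uptake genes in 2 of 5, 0 of 4 and 2 of 4. In endothelial-like cells *Plod1* and *Sparc* were higher among 25 tested, where 2.68% of all genes were higher. In epithelial-like cells *Lama4*, *Dcn* and *Itga1* were higher among 49, where 3.17% of all genes were higher. Member counts in these fits ran from 0 to 3 and 0 to 5 with a library left out, which was not recomputed for list genes. The part of RNA from outside the cells was not tested.

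Within the classes, clusters carried different levels of collagens, which is given as a description since clusters are not replicates. Among 20 mesenchymal-like clusters of version 1, *Col1a1* ranged from 480 to 4236 CPM, *Col14a1* from 13.9 to 373 and *Col13a1* from 0 to 121. The *Col1a1* maximum was in a cluster of 309 cells led by *Clec3b*, *Mfap5* and *Dpt*, that of *Col14a1* in a cluster of 210 cells led by *Atp1b1*, *Figf* and *Fmo2*, and that of *Col13a1* in a cluster led by *Nkx2-5*, *Kazald1* and *Slc40a1*. In the epithelium *Col11a2* peaked in clusters led by *Neurog3* in all 3 data sets, at 52.9 CPM in version 1, 17.2 in version 2 and 28.4 in Fev-Cre. *Col27a1*, a minor fibrillar gene, had its highest level in ductal-like clusters of version 1 (53.7 CPM) and version 2 (117), while in Fev-Cre an unnamed cluster (75.7) was above the ductal-like one (69.4).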

How the data were processed

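Single-cell transcriptomes were analysed from the UMI count matrices that the authors deposited, raw counts per gene and barcode made with Cell Ranger 1.1 (version 1 kits) or 2.1 (version 2 kits) on mm10. For Fev-Cre the matrix that includes the reporter sequences was used and the one without them was not used here. Cells with 200 or more genes were kept. The 4 version 1 libraries, the version 2 libraries and Fev-Cre were clustered separately (2000 variable genes, 20 principal components, 20 neighbours, Leiden resolution 2, leidenalg 0.10.2, Python 3.11.15), with 108 genes held out, which were all collagens and the 64 genes of the pathway list. A cluster was named where 3 or more markers of a class were raised and were found in 10% of its cells. Raised meant at least 1.5-fold above the lower quartile of the level over the clusters of the data set. Clusters with rival markers stayed unnamed unless all were epithelial, as did clusters led by skeletal muscle or squamous genes (1871 cells unnamed). Epithelial clusters without a clear narrower name stayed in the epithelial-like sums. They held 34 cells at version 1 E12.5, 107 and 63 in E14.5 batches 1 and 2, 15 at E17.5, and 254 in Fev-Cre. These naming thresholds were set after the clusters were seen. Cells carrying the signatures of 2 compartments were removed as doublets (3024 cells). Mesenchymal-like, mesothelial-like and mural-like cells formed a compartment together, and so did all epithelial-like cells. Doublets within a compartment, such as ductal-like with acinar-like, were therefore not removed. Names rebuilt in this way may differ from those of the study.

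UMIs were summed per library and class (20 or more cells) and tested with edgeR 4.0.16 (quasi-likelihood, TMM, low-count filter, R 4.3.3), with Benjamini-Hochberg adjustment over all genes. Class comparisons had the library as a block, since both classes came from the same pool. Deviations of classes of the same library correlated at 0.164 to 0.744, and every library correlated best with itself. Stage comparisons had kit as a term, and kit went together with the CD140a- sort and the sequencer. A floor of 3 UMIs over a group set the bound for genes at 0, and intervals cover counting error only. Scripts were tested on simulated data, where recovery meant an adjusted p below 0.05. For mesothelial-like against mesenchymal-like cells, 78.7% of 2-fold and 95.7% of 4-fold changes were recovered. For endothelial-like against mural-like cells these were 66% and 98.9%. For E17.5 against E12.5 in mesothelial-like cells they were 16.5% and 79.2%, so that stage test missed most 2-fold changes. Alternatives were DESeq2 1.42.0, RLE factors, no filter, no block, other clustering, subtraction of the UMIs of erythroid-like cells, single kits and leaving out each library.

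Genes named with values were the 3 most abundant of each structural group, the 5 largest changes in each direction per comparison that held in every library (both kits for stage), and, from the pathway list, the 2 largest in each direction in the first 5 class comparisons. Other genes were named after their values were seen. The members and lists were chosen with earlier results of these data known.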

Additional observations from a re-analysis of the deposited data

Results flagged for a closer look

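The stage effect differed between mesothelial-like and mesenchymal-like cells, by the interaction term on the log2 scale, for *Col12a1* (-5.63), *Col18a1* (-2.89), *Col5a1* (-1.60), *Col14a1* (1.42) and *Col16a1*. The value for *Col16a1* (-11.56) is a fitted one that rests on 0 UMIs in 46 mesothelial-like cells of version 1 E17.5 and gives no size of the difference, and in version 2 the gene was 3.46-fold higher at E17.5 than at E12.5 in these cells. Between endothelial-like and mesenchymal-like cells it differed for *Col15a1* (-4.63), *Col18a1* (-3.28) and *Col4a1* (-1.76). *Col5a1*, *Col14a1*, *Col16a1* and *Col4a1* lost these calls with DESeq2. *Col5a1* also lost its call with doublets kept and at Leiden resolution 1.

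Collagen genes were also counted in clusters that no comparison used. An unnamed cluster of 32 cells led by *Myog* held 81.6 CPM of *Col26a1*, 49.0 of *Col25a1* and 24.5 of *Col13a1*. Another unnamed cluster of 40 cells, led by *Slc40a1* and *Nkx2-5*, held 187 CPM of *Col13a1*.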

How the results depend on the processing

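Of 208 recomputed counts of called members, 166 stayed within 1.5 times the reported count and 42 did not. Of 1248 recomputed values of named genes, 1184 kept their direction and their side of the threshold, 64 lost the call and 0 changed direction. These genes had been picked as called and among the largest changes. For class and stage comparisons they also had to change alike in every library or in both kits. That choice favours values that hold, so these counts do not measure how stable the other members are. Without the replicate block (the library), 12 members were called in mesothelial-like, 5 in mural-like and 17 in glial-like against mesenchymal-like cells, 9 in endothelial-like against mural-like and 9 in ductal-like against acinar-like cells. With the UMIs of erythroid-like cells subtracted, 15, 4 and 17 were called in the first 3 of these. The version 2 kit alone, which left only version 2 E12.5 and Fev-Cre, of another strain and sort, gave 14 in mesothelial-like cells. Version 1 alone gave 8 between ductal-like and acinar-like cells. Between stages, 4 were called in mesenchymal-like cells with a linear term in days. Version 1 alone gave 6 in mesothelial-like, 3 in mural-like, 0 in endothelial-like and 0 in epithelial-like cells. Without the kit term, 4, 0 and 1 were called in mural-like, endothelial-like and epithelial-like cells. Without the low-count filter, 4 were called in both endothelial-like and epithelial-like cells, and DESeq2 called 4 in epithelial-like cells. For the interactions, DESeq2 called 2 in mesothelial-like cells, and in endothelial-like cells 9 were called without the class by kit term, 5 with doublets kept and 5 at Leiden resolution 1. For the settings of this section the shares of all genes called are not given. The counts therefore cannot show whether members shifted more than other genes. The cause of these shifts was not tested.

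With each library left out in turn, counts ran from 21 to 23 (mesothelial-like), 11 to 14 (mural-like), 25 to 26 (endothelial-like), 23 to 24 (glial-like), 30 to 32 (epithelial-like), 15 to 20 (endothelial-like against mural-like) and 13 to 14 (ductal-like). Between stages they ran from 7 to 19 in mesothelial-like, 2 to 14 in mural-like, 0 to 3 in endothelial-like and 0 to 5 in epithelial-like cells. Mesenchymal-like cells gave 20 without version 2 E12.5, and the interactions 5 and 3. Leaving out a version 1 library was not run for the mesenchymal-like stage comparison or the interactions, nor was version 2 alone for endothelial-like against mesenchymal-like cells. No paired analysis was possible between stages because no pool was sampled at more than 1 stage. With the version 1 batch as a term, chosen after seeing the data, 23 members were called in mesothelial-like, 15 in mural-like, 3 in endothelial-like and 5 in epithelial-like cells, and the mesenchymal-like comparison and the interactions had no degree of freedom left for it. Genes at 0 UMIs in a class sum allow only a bound.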
